A study of Mus musculus with 16 samples.

Results

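Levels of 8 genes that encode secreted antimicrobial proteins (*Reg3b*, *Reg3g*, *Lcn2*, *Ang4*, *Retnlb*, *Itln1*, *Lypd8* and *Lyz1*) were examined among the 22396 gene symbols measured in EpCAM+ cells of the mouse distal colon. The genes were chosen by name, with earlier results of these data known, and all 8 were found. EpCAM is a surface protein of epithelial cells, by which the cells were sorted after the mucosa was digested with Liberase and DNase. Each of 16 mice gave its own poly(A) RNA library. The control mice carried the floxed allele only (Tnfr2-f/f), and the other mice were labelled Vil1::Cre;Tnfr2-f/f, in which Cre recombinase under the villin promoter is meant to remove exon 2 of *Tnfrsf1b* (TNFR2) from intestinal epithelium. All groups thus share the floxed allele, and a control with Cre but no floxed allele was not part of the design. Water was given to 4 control and 5 knockout-labelled mice, and dextran sulfate sodium (DSS), which injures the colonic epithelium, to 3 control and 4 knockout-labelled mice. By the labels DSS was given at 3% for 6 days and all mice were dissected at day 12. The methods of the study state a higher strength and an earlier day for the uninjured mice, an age of 8 weeks, and that injured regions were cut out under a stereomicroscope after DSS.

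The colonic epithelium is separated from gut bacteria by mucus, into which epithelial cells release proteins that kill, bind or starve bacteria. The REG3 proteins are C-type lectins, of which REG3G kills Gram-positive bacteria, and their genes are classical targets of IL-22 and STAT3 signaling. LCN2 (lipocalin-2) binds the siderophores with which bacteria take up iron and is also a granule protein of neutrophils. ANG4 is a bactericidal ribonuclease, RETNLB (RELM-beta) is a bactericidal protein of goblet cells, and ITLN1 (intelectin-1) is a lectin for microbial sugars. LYPD8 is a surface protein that is shed into the mucus and binds flagellated bacteria, and LYZ1 is the lysozyme of Paneth cells, a cell type of the small intestine.

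The 2 treatments were deposited as separately normalized tables, so that levels are compared between treatments without a test. TPM, a level per transcript length, is given as deposited. The deposited values summed to between 487469 and 861109 TPM per mouse, not to a common total. Differences between treatments were taken after dividing each mouse by a median-of-ratios factor over all 16 mice, and are differences of the mean log2(rescaled TPM + 1). Each cage received either water or DSS, so that cage and treatment cannot be told apart. All 7 DSS mice were female (cages c and d), whereas the water-treated mice were males of cage a (4 mice) and females of cage b (5 mice). *Tnfrsf1b* did not separate the genotypes: with water its TPM lay between 11.1 and 15.5 (controls) or 9.23 and 14.8 (knockout-labelled) (exact two-sided permutation p = 0.198), and after DSS between 13.3 and 22.2 or 13.5 and 27.0 (exact permutation p = 0.629). TPM over the whole transcript of 10 exons is a weak check of the loss of 1 exon. The study reported less TNFR2 protein on EpCAM+ cells of such knockout mice by flow cytometry, with similar results by RT-qPCR. The part of RNA from other cells in the level of *Tnfrsf1b* was not tested. *Epcam* was at 566 to 1017 TPM in all 16 mice. Markers of other cells differed between treatments: 13 of 13 macrophage markers were lower after DSS in both genotypes (summed TPM 1368 to 2969 with water and 80.5 to 161 after DSS), as were 7 of 9 plasma and B cell markers above the filter in controls and 8 of 8 in knockout-labelled mice. The summed TPM of neutrophil markers was 51.0 to 116 with water and 99.0 to 2012 after DSS. In sorted bulk cells, fewer cells of a type and less RNA per cell cannot be told apart.

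The 3 members that stood higher after DSS in every mouse were *Reg3b*, *Reg3g* and *Lcn2*. *Reg3b* lies on chromosome 6 at 78370657-78373466 (plus strand, GRCm38, GENCODE M21), and *Reg3g* on the same chromosome at 78466269-78468872 (minus strand), with 92802 bases between them. Both listed transcripts have 6 exons. In the water-treated controls *Reg3b* was at 0.604, 0, 0 and 2.94 TPM, and it was listed at 0 in all 5 knockout-labelled mice. After DSS it was at 255, 1117 and 116 TPM in controls and at 1760, 347, 563 and 1382 TPM in knockout-labelled mice. The lowest DSS mouse was therefore far above the highest water-treated mouse. *Reg3b* ranked between 23 and 549 among all genes of a DSS mouse, and between 8410 and 18106.5 in a water-treated mouse.

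*Reg3g* followed the same pattern at a lower level. It was at 0.617, 0, 1.36 and 2.37 TPM in the water-treated controls, and at 2.28, 1.52, 0.615, 1.43 and 0 TPM in the knockout-labelled mice. After DSS it was at 97.7, 349.7 and 56.8 TPM in controls and at 498, 168, 195 and 504 TPM in knockout-labelled mice. Control 3 was the lowest DSS mouse for both genes. On the rescaled log2 scale the DSS mice exceeded the water-treated mice by 7.40 (*Reg3b*) and 5.77 (*Reg3g*) in controls, the largest and second largest differences among 11241 genes that averaged 1 rescaled TPM or more. In knockout-labelled mice the differences were 9.46 and 6.94, again the top places among 11138 genes. These sizes depended on the pseudocount, since the water-treated mice were at or near 0. With 0.1 in place of 1 they were 9.43 and 7.13 in controls and 12.8 and 8.15 in knockout-labelled mice. No fold is given for *Reg3b* in knockout-labelled mice, since all of them were listed at 0 with water. *Reg3a* and *Reg3d*, the neighbouring relatives, were listed at 0 in every water-treated mouse and reached at most 1.05 and 0.323 TPM after DSS.

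The sequences before the RefSeq starts of the pair are shown because both genes were near 0 with water and among the highest genes after DSS (RefSeq, GRCm38.p6, 5′ to 3′ on the gene's strand). For *Reg3b* the stretch that overlaps no annotated exon is printed, chr6:78370707-78370860, from 178 to 25 bases before the start, and for *Reg3g* the 250 bases at chr6:78468875-78469124. The RefSeq start of *Reg3b* (78370885) lies 24 bases after the start of the transcript listed in the tables (78370861) and 228 bases after the start of the gene given above, at which another annotated transcript begins. The *Reg3b* stretch therefore precedes the listed transcript but lies in an intron of that other transcript. The RefSeq start of *Reg3g* (78468874) lies 2 bases before that of its listed transcript. Capitals mark matches, on either strand, to TTCNNNGAA, the spacing bound by STAT proteins, to the core promoter motif TATAAA, and to the NF-kB motif. The TATAAA match of *Reg3b* runs 1 base past the end of the printed stretch.
Reg3b: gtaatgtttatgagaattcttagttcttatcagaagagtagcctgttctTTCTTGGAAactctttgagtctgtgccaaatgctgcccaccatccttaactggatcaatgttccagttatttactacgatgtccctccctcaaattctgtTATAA
Reg3g: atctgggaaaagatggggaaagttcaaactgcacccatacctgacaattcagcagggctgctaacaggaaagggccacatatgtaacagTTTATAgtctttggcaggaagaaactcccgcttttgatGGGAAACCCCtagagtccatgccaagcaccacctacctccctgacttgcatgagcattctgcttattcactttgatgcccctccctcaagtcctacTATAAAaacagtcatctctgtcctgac

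Counted from these RefSeq starts, *Reg3b* held a TTCNNNGAA match from 129 to 121 bases before the start, and *Reg3g* held none. A match to the NF-kB motif was found for *Reg3g* and not for *Reg3b*. Both held a TATAAA close to the start, from 29 and 27 bases before it, and their last 20 bases before the start, which for *Reg3b* are already part of the listed transcript, were identical. Of the 32851 promoters in the table, 7.02% held a TTCNNNGAA match, 7.25% an NF-kB match and 12.4% a TATAAA match within 250 bases. No match to the STAT6 motif (the same ends with 1 more base between them) or to TTNCNNAA (C/EBP) was found for either gene, where 5.85% and 36.8% of promoters held one. A match is a description of the letters, not a site of binding.

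**Figure D1:**
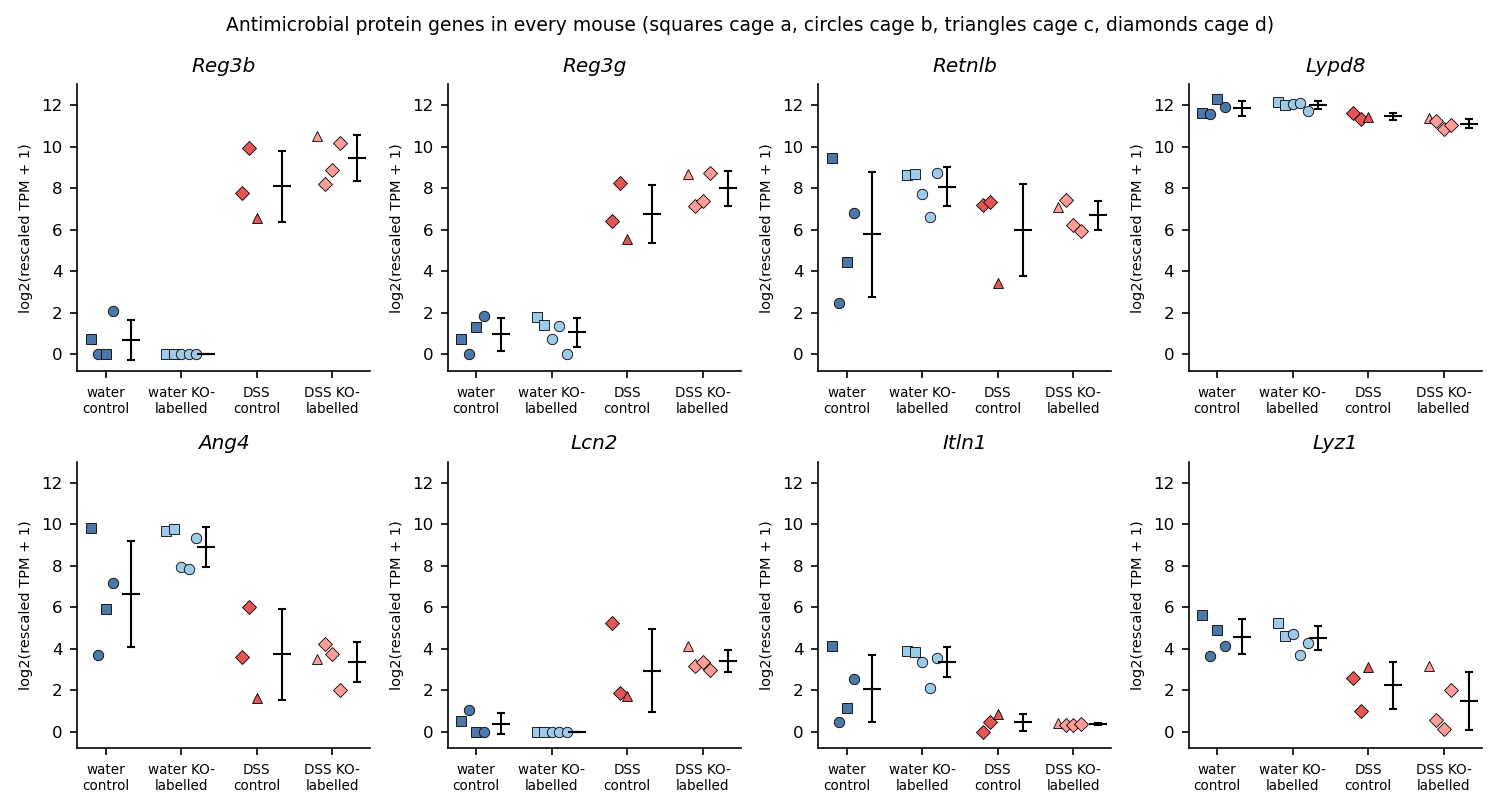
Level of each of the 8 genes as log2(rescaled TPM + 1) in every mouse of the 4 groups, with 1 symbol per mouse (shape gives the cage) and the mean and SD beside each group. *Reg3b*, *Reg3g* and *Lcn2* sit near 0 with water and apart from it after DSS, *Lypd8* sits between 10.9 and 12.3 in all 16 mice, and *Ang4*, *Retnlb* and *Itln1* spread widely among the water-treated controls.

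Across the 7 DSS mice *Reg3b* and *Reg3g* moved together. Pearson's r of log2(TPM + 1) was 0.99 (exact permutation p = 0.000397, 0.00357 after Benjamini-Hochberg adjustment over 36 pairs of members) and Spearman's rho was 0.96 (p = 0.00278, adjusted p = 0.025). Without the 2 mice farthest from the median of *Reg3b*, r was 0.98. The TPM ratio of *Reg3b* to *Reg3g* within a mouse lay between 2.04 and 3.53, a narrow band beside the range of 15.2-fold over which *Reg3b* itself varied between DSS mice. Only 5 of the 753 windows of 31 bases in the *Reg3b* transcript also occurred in *Reg3g*, so that reads of the genes could mostly be told apart.

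*Lcn2* (chromosome 2, 32384633-32388252, minus strand) was the third gene to stand higher. With water it was at 0.408, 0.961, 0 and 1.13e-05 TPM in controls, and listed at 0 in all 5 knockout-labelled mice. After DSS it was at 43.0, 2.98 and 2.79 TPM in controls and at 19.9, 9.54, 10.98 and 8.01 TPM in knockout-labelled mice. The groups did not overlap in either genotype, but 2 of the 3 DSS controls were under 3 TPM. The rescaled difference on the log2 scale was 2.55 in controls and 3.41 in knockout-labelled mice, places 18 and 12 from the top. Both depended on the pseudocount, the water-treated mice being at or near 0: with 0.1 in place of 1 they were 4.47 and 6.60. Without DSS control 1 the difference in controls was 1.39. No fold is given for *Lcn2* in knockout-labelled mice either. *Lcn2* did not share the order of *Reg3b* among DSS mice (r = 0.088, exact permutation p = 0.843, n = 7, adjusted p = 0.949).

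Neutrophil markers were compared with *Lcn2* mouse by mouse, without a test. Control 1, the mouse with 43.0 TPM of *Lcn2*, had the highest summed TPM of the 13 neutrophil markers (2012), and the knockout-labelled mouse with 19.9 TPM of *Lcn2* had the next highest (596). Control 3, with the lowest *Lcn2*, had the lowest sum (99.0). Control 2, with 2.98 TPM of *Lcn2*, had a sum of 339, above knockout-labelled mice 2 (310.3) and 4 (316), which had more *Lcn2*. Of the 8 neutrophil markers above the filter in controls 2 stood higher after DSS and 0 lower, and of 6 in knockout-labelled mice 2 stood higher and 1 lower, where 10.6% and 17.4% of all genes stood higher and 14.2% and 18.1% lower. *S100a8* and *S100a9*, which epithelial cells can also express, reached 904 and 935 TPM in control 1, most of its sum. Their medians were 144 and 145 TPM in DSS controls, where the median sum was 339. In knockout-labelled DSS mice the medians were 157 and 172 TPM, where the median sum was 382. The sum thus mostly followed these 2 genes. The granule genes *Mpo*, *Elane* and *Camp* were listed at 0 in all 7 DSS mice. *Ngp*, another neutrophil marker, was listed at 0 in every water-treated mouse but not in every mouse of either DSS group. The antimicrobial gene *Ltf* had means of 0.146 rescaled TPM with water and 2.87 after DSS in controls, where the groups overlapped. In knockout-labelled mice its means were 0.0294 and 1.40 rescaled TPM. The receptor gene *Cxcr2* was at 0.431 to 4.16 TPM in DSS controls and 1.23 to 2.08 TPM in knockout-labelled DSS mice. With water it was at 0.159 to 1.07 TPM in controls and 0 to 0.412 TPM in knockout-labelled mice. *S100a8* was at 19.2 TPM or more in every DSS mouse and at most 6.31 TPM with water. The part of neutrophil RNA in the level of *Lcn2* was not tested.

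**Figure D2:**
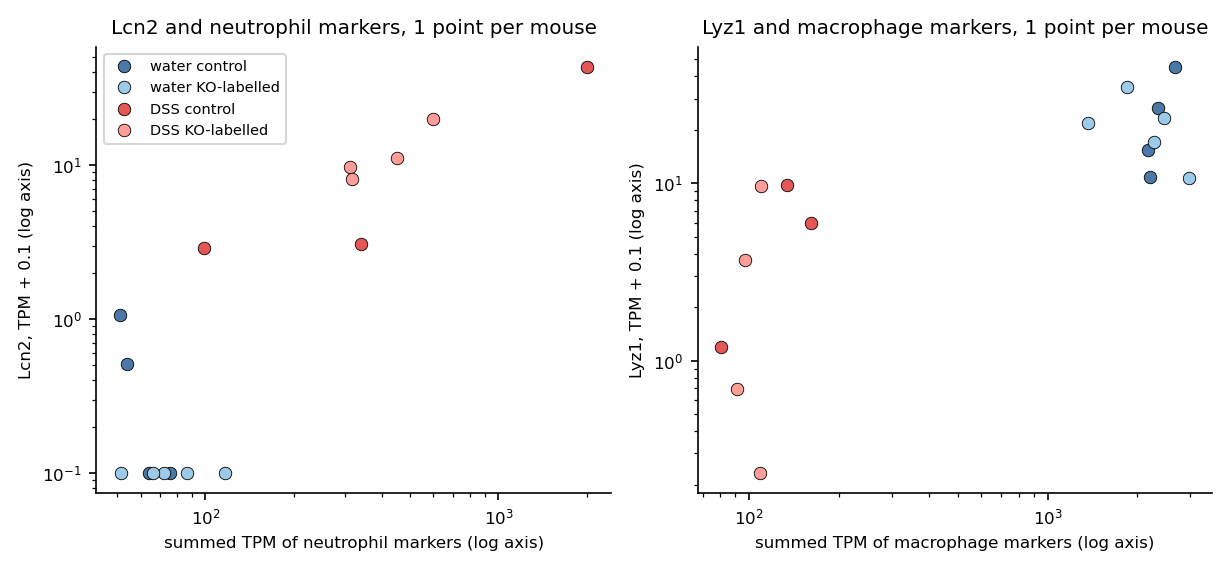
Left, *Lcn2* (TPM + 0.1) against the summed TPM of 13 neutrophil markers, and right, *Lyz1* (TPM + 0.1) against the summed TPM of 13 macrophage markers, both on log axes with 1 point per mouse. The DSS mouse with the most *Lcn2* (43.0 TPM) also has the highest neutrophil sum (2012), most of it from *S100a8* and *S100a9*. The DSS mice lie apart from the water-treated mice on the macrophage axis.

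*Ang4*, *Retnlb* and *Itln1* were expressed in the water-treated mice at levels that differed widely from mouse to mouse. *Ang4* (chromosome 14, 51763878-51773590, minus strand, 2 exons) was at 841, 10.8, 54.3 and 130.4 TPM in controls 1 to 4, a range of 77.9-fold over the water-treated mice. In the knockout-labelled mice it was at 753, 779, 225, 207 and 588 TPM. *Retnlb* (chromosome 16, 48816856-48818892, plus strand, 4 exons) was at 648, 4.16, 18.9 and 100.4 TPM in controls, and at 374, 379.8, 199.9, 87.5 and 387 TPM in knockout-labelled mice. *Itln1* (chromosome 1, 171518122-171535294, minus strand, 8 exons) was at 15.2, 0.365, 1.09 and 4.32 TPM in controls and at 12.9, 12.0, 8.58, 3.04 and 9.84 TPM in knockout-labelled mice. For all 3 genes control 1 was the highest control, control 2 the lowest and control 3 the next lowest. *Lypd8*, by contrast, varied by 1.68-fold over the same 9 mice.

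The 3 genes had similar orders over the 9 water-treated mice. Pearson's r was 0.98 for *Retnlb* with *Ang4* (exact permutation p = 7.99e-05, adjusted p = 0.00122), 0.98 for *Retnlb* with *Itln1* (p = 1.65e-05, adjusted p = 0.000595) and 0.96 for *Ang4* with *Itln1* (p = 0.000102, adjusted p = 0.00122). Spearman's rho was 0.93, 0.93 and 0.97 (adjusted exact permutation p = 0.00899, 0.00899 and 0.00595). Without the 2 mice farthest from the median of the first gene, r was 0.93, 0.97 and 0.88, and leaving out 1 mouse at a time gave values from 0.94 to 0.99. These 3 pairs and *Reg3b* with *Reg3g* were the 4 of 36 pairs below an adjusted p of 0.05. All of these correlations pooled both genotypes and both cages of a treatment, and the permutations treated its mice as exchangeable. The part of group differences in r was not tested. With water the cages held 4 and 5 mice, too few for a correlation within a cage. The mice also differed in summed TPM of 6 markers of deep crypt secretory cells, the colonic counterpart of Paneth cells. It was 12177 in control 1, 4962 in control 2, 5261 in control 3 and 8523 in control 4. *Mptx1*, 1 of these markers, was alone at 2456 to 8830 TPM in these controls. The 12 goblet cell markers had another order, with sums of 6225, 5399, 6625 and 4739 TPM in controls 1 to 4. The part of cell composition in the spread was not tested.

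After DSS *Ang4* and *Itln1* stood lower in knockout-labelled mice, whereas in controls both overlapped the water-treated mice, and *Retnlb* overlapped in both genotypes. *Ang4* was at 12.6, 71.6 and 2.54 TPM in controls and at 12.2, 21.4, 14.8 and 3.55 TPM in knockout-labelled mice. *Itln1* was at 0, 0.453 and 0.998 TPM in controls and at 0.400, 0.305, 0.281 and 0.349 TPM in knockout-labelled mice, and no DSS mouse reached 1 TPM. *Retnlb* was at 168, 184 and 12.3 TPM in controls and at 165, 206, 88.9 and 71.7 TPM in knockout-labelled mice. In knockout-labelled mice the groups did not overlap for *Ang4* (log2 difference of -5.52) and *Itln1* (-2.99), and did overlap for *Retnlb* (-1.39). In the same mice 5 of 6 deep crypt secretory markers and 8 of 12 goblet cell markers stood lower, and 0 and 1 stood higher. In controls all 3 overlapped, with differences of -2.92 (*Ang4*), -1.62 (*Itln1*) and 0.21 (*Retnlb*), and 1 of 6 deep crypt secretory and 3 of 12 goblet cell markers stood lower. Without DSS control 2, which held 71.6 TPM, the difference of *Ang4* was -4.05 and its groups no longer overlapped, at 10.96 rescaled TPM in the highest DSS control against 11.8 in the lowest water-treated one. Without water-treated control 2 the groups of *Itln1* did not overlap (-2.14). For *Retnlb*, leaving out 1 control at a time gave differences from -0.89 to 1.49.

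The balance of *Ang4* to *Retnlb* within a mouse needs no scaling between tables. *Ang4* was 1.13 to 2.88 times *Retnlb* in each of the 9 water-treated mice, and 0.0495 to 0.389 times *Retnlb* in each of the 7 DSS mice. These ranges did not overlap, and water-treated control 2, with 4.16 TPM of *Retnlb*, fell inside the water range with a ratio of 2.59. The ratio of *Retnlb* to *Itln1* was 11.4 to 42.5 with water. After DSS it was 12.3 to 674 in the 6 mice with *Itln1* above 0, where *Itln1* under 1 TPM makes the ratio imprecise. In the *Ang4* transcript 94 of 679 windows of 31 bases were shared with *Ang*, *Ang2*, *Ang5* or *Ang6*, of which *Ang2*, *Ang5* and *Ang6* were listed at 0 in all 16 mice. *Ang*, which is expressed in many tissues, had a mean of 20.8 rescaled TPM in DSS controls and 29.9 in water-treated controls.

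**Figure D3:**
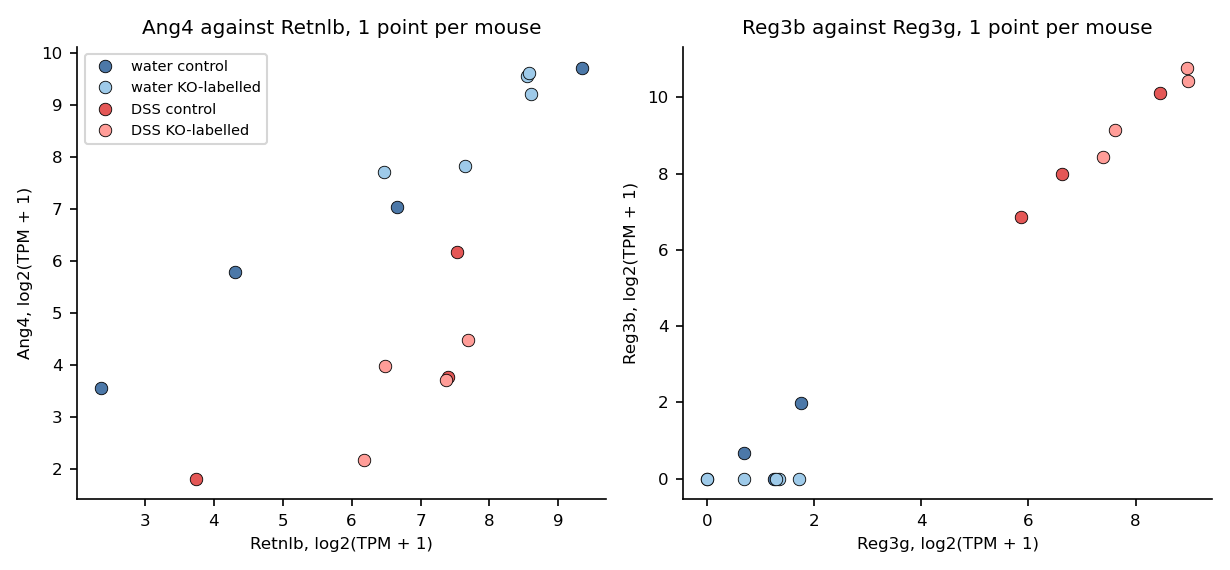
Left, *Ang4* against *Retnlb*, and right, *Reg3b* against *Reg3g*, as log2(TPM + 1) with 1 point per mouse, coloured by group. The water-treated mice lie on 1 rising line in the left panel and the DSS mice lie under it, while in the right panel the DSS mice form 1 line far from the water-treated mice near 0.

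The 250 bases before the starts of *Ang4* (chr14:51773591-51773840) and *Itln1* (chr1:171535295-171535544) are shown because the pair was correlated with water and stood lower after DSS in knockout-labelled mice. Capitals mark the TTCNNNGAA match of *Ang4*, from 192 to 184 bases before the start. *Itln1* held no match to any of the 5 motifs searched. A sequence for *Retnlb* is not shown.
Ang4: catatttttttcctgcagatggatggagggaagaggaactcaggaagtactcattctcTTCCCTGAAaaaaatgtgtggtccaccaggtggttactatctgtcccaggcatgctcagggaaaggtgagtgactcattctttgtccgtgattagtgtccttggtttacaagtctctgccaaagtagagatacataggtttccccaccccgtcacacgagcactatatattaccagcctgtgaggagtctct
Itln1: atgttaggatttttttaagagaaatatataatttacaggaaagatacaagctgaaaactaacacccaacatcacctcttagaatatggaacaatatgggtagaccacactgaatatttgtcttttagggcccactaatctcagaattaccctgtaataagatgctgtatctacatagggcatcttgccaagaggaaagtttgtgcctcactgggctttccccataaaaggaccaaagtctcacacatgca

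*Lypd8* (chromosome 11, 58379043-58390728, plus strand) was the most abundant member in every mouse and the least variable. It was at 2907, 2772, 4661 and 3552 TPM in the water-treated controls and at 3090 to 4297 TPM in the knockout-labelled mice. After DSS it was at 3646, 2887 and 3447 TPM in controls and at 3142, 2844, 2190 and 2462 TPM in knockout-labelled mice. It ranked between 11 and 29 among all genes of a mouse. Of its listed transcripts, the one with 7 exons carried 96.3% to 98.4% of the gene's TPM in each mouse. The rescaled difference between DSS and water was -0.39 in controls, where the groups overlapped, and -0.90 in knockout-labelled mice, where they did not. In knockout-labelled mice the groups overlapped on TPM as deposited (-0.54), and under quantile normalization over the 16 mice the sign turned (0.43). The direction for *Lypd8* thus depended on the scaling.

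*Lyz1* (chromosome 10, 117287797-117292868, minus strand, 4 exons) stood lower after DSS in both genotypes. It was at 44.9, 10.7, 26.4 and 15.2 TPM in the water-treated controls and at 34.7, 21.6, 23.2, 10.6 and 16.9 TPM in the knockout-labelled mice. After DSS it was at 5.84, 1.10 and 9.65 TPM in controls and at 9.53, 0.590, 0.132 and 3.58 TPM in knockout-labelled mice. The groups did not overlap, with differences of -2.34 and -3.02 on the rescaled log2 scale. *Lyz1* shares 422 of 1233 windows of 31 bases (34.2%) with *Lyz2*, the lysozyme of macrophages, whose gene lies 5475 bases away on chromosome 10, so that the division of reads between them is uncertain. *Lyz2* was at 468 to 1060 TPM with water and at 10.2 to 30.6 TPM after DSS, alongside the other macrophage markers. The ratio of *Lyz1* to *Lyz2* was 0.0100 to 0.0561 with water and 0.00494 to 0.537 after DSS. The Paneth cell defensin genes *Defa17*, *Defa21*, *Defa22*, *Defa24* and *Defa30* were listed at 0 in all 16 mice. The part of macrophage RNA in the level of *Lyz1* was not tested.

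Counted over the 8 members, 3 stood higher and 1 lower after DSS in controls with no overlap between groups, and 3 stood higher and 4 lower in knockout-labelled mice. Over all genes that averaged 1 rescaled TPM or more, 10.6% stood higher and 14.2% lower in controls, and 17.4% and 18.1% did in knockout-labelled mice. That average was taken over water-treated and DSS mice together. In both genotypes *Reg3b* and *Lcn2* averaged under 1 rescaled TPM with water, and *Itln1* did after DSS. These members passed the filter only through the treatment where they were high, so their direction was partly set by the filter. Without DSS control 3 the shares in controls were 24.8% and 26.4%, and the members numbered 3 and 1 as before. *Retnlb* was the member that overlapped in both genotypes. On TPM as deposited the split over all genes was 30.9% higher and 8.25% lower in controls, and 31.5% and 10.1% in knockout-labelled mice, and the median gene was shifted by 0.32 and 0.31 on the log2 scale. Quantile normalization shifted it by 0.18 in both genotypes, and scaling to 10 epithelial genes by 0.32 and 0.26. The members' counts were 3 higher and 1 lower in controls under each of these scalings and by rank. In knockout-labelled mice they were 3 higher and 3 or 4 lower.

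**Figure D4:**
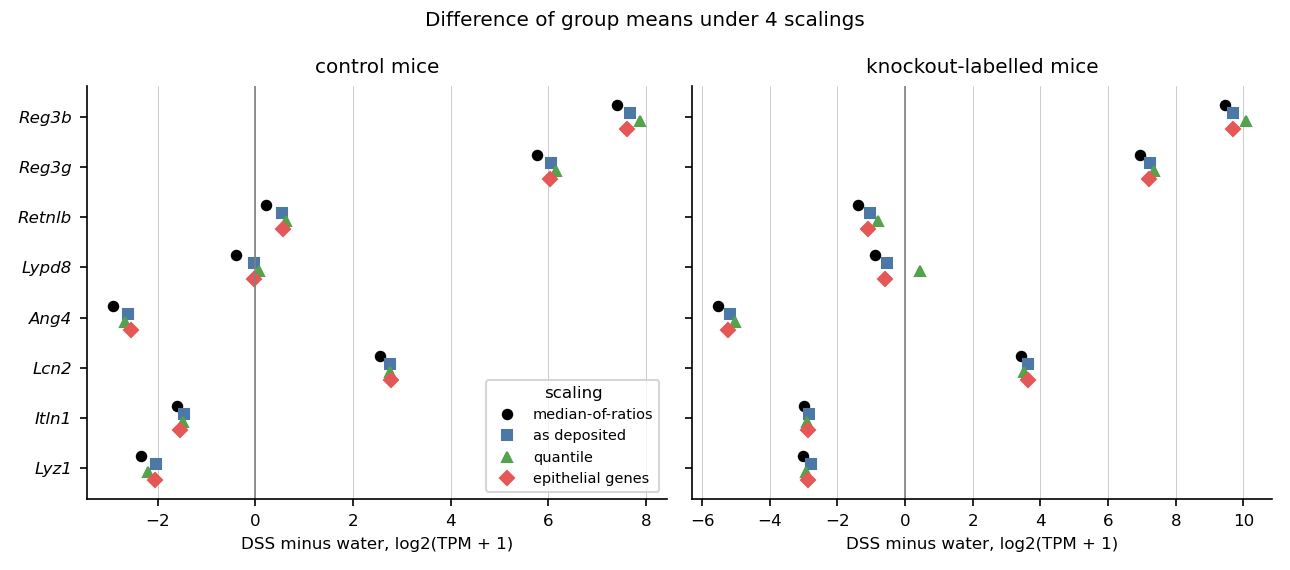
Difference between DSS and water in the mean log2(TPM + 1) of each member, for control mice (left) and knockout-labelled mice (right), with 1 symbol for each of 4 scalings. *Reg3b* and *Reg3g* lie far to the right under all 4, *Ang4*, *Itln1* and *Lyz1* to the left, and *Lypd8* crosses 0 under quantile normalization.

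Genotype did not separate any member past the threshold. limma was fitted to log2(TPM + 1) of all genes that averaged 1 TPM or more within the treatment. After DSS 7 members were tested (*Itln1* was below the filter), and 0 had a Benjamini-Hochberg adjusted p under 0.05, where 0.00918% of all genes did (1 of 10899). At an unadjusted p under 0.05 it was 0 of 7 members and 2.65% of all genes. *Reg3b* had a mean of 496 ± 542 TPM in controls (SD, n = 3) and 1013 ± 668 in knockout-labelled mice (SD, n = 4), a log2 difference of 1.37 ± 0.84 (SE, limma adjusted p = 1.00, 95% interval -0.58 to 3.31). *Reg3g* differed by 1.26 ± 0.67 (95% interval -0.29 to 2.81). *Lypd8* was lower by 0.33 in knockout-labelled mice (-0.33 ± 0.17, 95% interval -0.72 to 0.07), with 3 of 4 mice below all controls, and under quantile normalization the difference was -0.0079 (limma adjusted p = 1.00). The exact two-sided permutation p of TPM was 0.286 for *Reg3b*, 0.257 for *Reg3g* and 0.114 for *Lypd8*, where 0.0286 is the smallest that 3 against 4 mice can give. Cage c held 1 mouse of each genotype and cage d the other 5. *Reg3b* differed between genotypes by 3.91 in cage c and by 0.28 in cage d, and *Reg3g* by 3.11 and 0.46.

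Single mice moved these estimates. Control 3, the cage c control, had the lowest *Reg3b*, *Reg3g*, *Retnlb*, *Ang4* and *Lcn2* of all DSS mice. Its goblet cell markers summed to 9861 TPM (2721 to 3917 in the other DSS mice) and its *S100a8* was at 19.2 TPM (113 to 904). Without control 3 the difference was -0.53 for *Retnlb* (limma adjusted p = 0.922), against 0.71 with it. Without control 1, the mouse with the most *Lcn2*, knockout-labelled mice exceeded controls in *Lcn2* by 1.68 (limma unadjusted p = 0.00182, adjusted p = 0.905). Without control 2, the control with the most *Reg3b* and *Reg3g*, the differences were 2.26 and 2.00 (limma adjusted p = 0.83 for both), and without control 3 they were 0.64 and 0.70 (adjusted p = 0.952 and 0.924).

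With water 6 members were tested, *Reg3b* and *Lcn2* being below the filter, and 0 were called by limma, where 0.00905% of all genes were (1 of 11046). At an unadjusted p under 0.05 it was 0 of 6 members and 5.28% of all genes. *Ang4*, *Retnlb* and *Itln1* were higher on average in knockout-labelled mice. The log2 differences were 2.25 ± 1.07 for *Ang4* (SE, 95% interval -0.16 to 4.66), 2.30 ± 1.23 for *Retnlb* (-0.46 to 5.06) and 1.26 ± 0.69 for *Itln1* (-0.30 to 2.82), each with a limma adjusted p of 0.865. The mean TPM of *Ang4* was 259 ± 391 in controls (SD, n = 4) and 510.3 ± 278 in knockout-labelled mice (SD, n = 5), and control 1 was above all 5 of them. The difference had the same sign in both cages: 1.83 and 2.94 for *Ang4*, 1.73 and 3.06 for *Retnlb*, and 1.21 and 1.47 for *Itln1* in cages a and b. Without control 1 the differences were 3.32, 3.52 and 1.94 (limma unadjusted p = 0.00298, 0.00446 and 0.00597, adjusted p = 0.721 for each). *Lcn2*, at or below 0.961 TPM in controls and listed at 0 in all knockout-labelled mice, gave the lowest of 16 exact two-sided permutation p-values (0.0476, unadjusted), at levels where TPM is imprecise. *Lyz1* (-0.08 ± 0.43) and *Reg3g* (0.08 ± 0.44) differed by less than their SE. Whether the effect of genotype differed between DSS and water was not tested, since the tables were normalized separately.

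**Figure D5:**
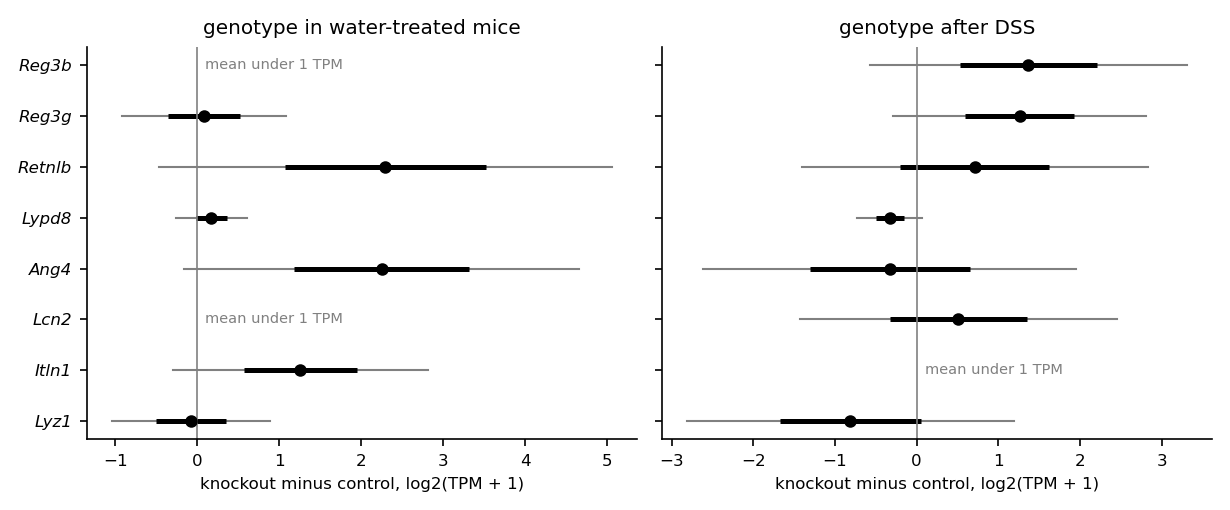
Difference between knockout-labelled and control mice in log2(TPM + 1) for each member with water (left) and after DSS (right). Points are limma estimates, thick lines the SE and thin lines the 95% interval, and each thin line crosses 0.

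Cage and sex, which are the same split with water, were compared with genotype as a covariate. Of 6 members 0 were called by limma, where 0.0362% of all genes were (4 of 11046). *Lyz1* was lower in the females of cage b (log2 difference of -1.02 ± 0.29, SE, limma unadjusted p = 0.00716, adjusted p = 0.669), and was the 1 member of 6 with an unadjusted p under 0.05, as 6.83% of all genes had. *Ang4* differed by -1.85 ± 0.94, *Retnlb* by -1.59 ± 1.18 and *Itln1* by -0.97 ± 0.65. *Lypd8* differed by -0.17 ± 0.20.

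Likeness of pattern was measured as the mean of Pearson's r of log2(TPM + 1) within water and within DSS, over 10159 genes that averaged 1 TPM or more in both tables. Members below that mean in a table (*Reg3b*, *Lcn2* and *Itln1*) were compared in the other table only. They were not among the genes that could be listed as like another member. This is a description over 7 to 16 mice. The genes named are the highest of 10159 compared, so that a high r over so few mice can come from the search itself. *Reg3g* was the gene most like *Reg3b* (0.99, 7 DSS mice), followed by *Arhgap21* (0.99) and *Bms1* (0.97). For *Reg3g* over all 16 mice, with *Reg3b* not among the genes compared, they were *Ttc37* (0.81), *Bms1* (0.78) and *Polr1a* (0.77). With water *Reg3g* was at 0 to 2.37 TPM, where r is imprecise. *Ang4* was the gene most like *Retnlb* (0.87), followed by *Rala* (0.85) and *Zc3h15* (0.83), and *Gm20604* (0.88), *Retnlb* (0.87) and *Yipf5* (0.81) were most like *Ang4*. *Retnlb* (0.98), *Snrpf* (0.96) and *Ang4* (0.96) were most like *Itln1* over the 9 water-treated mice. The genes most like *Lcn2* over the 7 DSS mice were *Atrnl1* (0.98), *Slc51b* (0.98) and *Car9* (0.98). *Tmem45b* (0.88), *Fam241b* (0.85) and *Prdx6* (0.83) were most like *Lypd8*, and *Det1* (0.91) and *Sdha* (0.89) were among the genes most like *Lyz1*.

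Other antimicrobial and barrier genes did not share 1 direction. Of 21 such genes above the filter in controls, 6 stood higher after DSS with no overlap, 6 stood lower, and the median difference was -0.81 (0.01 over all genes). In knockout-labelled mice it was 1 higher and 11 lower of 20, with a median of -1.17 (-0.00 over all genes). The 6 higher in controls were *Dmbt1*, *Defb37*, *Duox2*, *Pla2g5*, *Ido1* and *Pglyrp1*. *Dmbt1*, a scavenger receptor of the mucosa that binds bacteria, was the 1 gene higher in both genotypes, with means of 21.8 rescaled TPM with water and 177 after DSS in controls (log2 difference of 3.29) and a difference of 2.27 in knockout-labelled mice. The beta-defensin gene *Defb37* had a mean of 3.20 rescaled TPM after DSS in controls, against 0.412 with water (log2 difference of 1.71). *Mptx1*, a gene of the pentraxin family, stood lower, with means of 5465 and 609 rescaled TPM in controls (-3.78) and 8892 and 60.4 in knockout-labelled mice (-8.15). The goblet cell genes *Clca1* (-2.22 and -4.54) and *Fcgbp* (-1.99 and -3.21), whose products are part of mucus, stood lower in both genotypes as well.

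Of the 14 relatives of the members found in the tables, 6 passed the filter, 4 of which stood lower in controls and 5 in knockout-labelled mice. *Lyz2* (-5.54 and -5.57) and *Retnla* (-6.82 and -7.09), an effector gene of alternatively activated macrophages, showed the largest differences. *Retnla* was at 56.7 to 383 TPM with water, and was listed at 0 after DSS in 6 of 7 mice.

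Among 30 genes of the receptors and pathways that act upstream of the members, 25 passed the filter in controls, of which 0 stood higher and 8 lower (median of -0.30), and 27 in knockout-labelled mice, of which 2 stood higher (*Tlr4* and *Il13ra1*) and 7 lower (median of -0.30). These counts stand beside 10.6% higher and 14.2% lower over all genes in controls, and 17.4% and 18.1% in knockout-labelled mice, as do those of the other lists. *Socs3*, a target and inhibitor of STAT3 signaling, stood lower in both genotypes. Its means were 110.1 and 32.6 rescaled TPM in controls (-1.78) and 98.1 and 34.3 in knockout-labelled mice (-1.43). Macrophage markers also stood lower after DSS, and the part of macrophage RNA in the levels of the upstream genes was not tested. By genotype limma called 0 genes of these 3 lists in either treatment. After DSS the unadjusted limma p was under 0.05 for 4 of 23 other antimicrobial genes tested (*Clca1*, *Hamp*, *Mptx1* and *Wfdc2*). It was so for 2 of 25 upstream genes (*Il4ra* and *Tlr4*), 0 of 5 relatives and 2.65% of all genes. With water it was so for 1 of 19 other antimicrobial genes (*Clca1*) and 1 of 6 relatives (*Reg4*). The upstream genes then gave 0 of 27, and all genes 5.28%. *Clca1* had opposite signs, at -1.32 ± 0.35 after DSS (SE, limma adjusted p = 1.00) and 1.00 ± 0.44 with water (adjusted p = 0.865).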

How the data were processed

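The authors sorted EpCAM+ cells, made stranded libraries, quantified single reads with kallisto and tested transcripts with sleuth. Per the labels the genome build was mm10. The authors deposited 2 tables (DSS, water) of TPM per principal transcript, normalized separately. Other columns hold their own tests and were not used. TPM keeps no depth, so depth per library is unknown. After dropping 385 repeated lines per table, TPM was summed over 28988 transcripts to 22396 symbols. kallisto divides reads between similar genes.

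Genotype, and cage with sex, were tested within a treatment by limma 3.58.1 (R 4.3.3) on log2(TPM + 1) with a variance trend, for genes averaging 1 TPM or more, at a Benjamini-Hochberg adjusted p under 0.05. The fit was tested on simulated data. For single values, mice were permuted exactly (two-sided). The tables were joined by median-of-ratios factors over genes above 0 in all 16 mice, without tests. Members and gene lists were chosen with earlier results of these data known. Genes named are the members, their near relatives, the 3 genes most like each member (1 is not reported here), the 8 list genes with the largest DSS difference in controls and genes behind small counts. Alternatives were other pseudocounts, filters and scalings, cage, the replicate number and leaving out each mouse. Replicates are separate mice. Promoters are from RefSeq (7 of 8 members matched) and gene positions from GENCODE M21. Python 3.11.15, numpy 2.4.6, pandas 2.3.3, scipy 1.17.1 and matplotlib 3.10.9 were used.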

Additional observations from a re-analysis of the deposited data

Results flagged for a closer look

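Among 22 combinations of member and group checked for a mouse far from the others, 2 held one. The check was made on TPM, not on its log2, and its chance rate of about 1 in 20 assumes normal values, which was not tested. Both far values belonged to the same mouse: water-treated control 1 held 648 TPM of *Retnlb*, where the other 3 controls held 4.16 to 100.4 TPM, and 841 TPM of *Ang4*, where they held 10.8 to 130.4 TPM. They are not independent, since the 2 genes were correlated with water (Pearson's r = 0.98). Groups of 3 mice (the DSS controls) were not checked.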

How the results depend on the processing

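No member was called by genotype, or by cage and sex, under any alternative run. The members without overlap between DSS and water numbered 4 in controls (4 to 5 leaving out a mouse) and 7 in knockout-labelled mice (7 to 8), and 4 correlated pairs were counted each time. Counts over all genes were unstable. After DSS the 1 called gene became 0 with a pseudocount of 0.1, without a filter and with the replicate number as a block, and 0 to 3 leaving out a mouse. With water the 1 called gene became 0 with a pseudocount of 0.1, with a filter of 5 TPM and with the replicate block, 4 without a filter, and 1 to 2 leaving out a mouse. By cage and sex the 4 called genes became 3 to 7 leaving out a mouse. The cause was not tested. Signs of uncalled log2 differences by genotype turned in 12 of 190 refits. After DSS *Ang4* was 0.14 under the replicate block. Without a mouse *Ang4* ran from -1.38 to 0.80 (above 0 without control 2 or knockout-labelled mouse 4), *Lcn2* from -0.091 to 1.68 (below 0 without control 2 or 3) and *Retnlb* from -0.53 to 1.37 (below 0 without control 3). With water *Lypd8* was -0.35 under quantile normalization and *Lyz1* 0.026 with cage as a covariate. Without a mouse *Reg3g* ran from -0.23 (control 2) to 0.33 and *Lyz1* from -0.38 to 0.28 (above 0 without control 1 or 3 or knockout-labelled mouse 4). Between DSS and water *Lypd8* turned to 0.43 in knockout-labelled mice under quantile normalization. The replicate block changed no call of a member. Same-numbered mice are different animals whose deviations from group means correlated between -0.20 and 0.09, so the numbers were not taken as pairs. TPM gives no depth, so that the smallest level that could be seen in a library is unknown.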
